A study of Homo sapiens with 6 samples.

Results

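The cytosolic ribosomal protein genes of the human colorectal carcinoma line HCT116 were examined in cells with wild-type eIF6 and in cells homozygous for the N106S substitution in eIF6. Members were taken by symbol: genes named RPL or RPS with the usual number or letter, RPLP0 to RPLP2, RPSA, RPS4X and FAU, which encodes the small-subunit protein eS30 fused to a ubiquitin-like protein. The rule found 78 genes among 59251 rows of the count table, 46 of the large (60S) and 32 of the small (40S) subunit. A further 1943 rows carried a member's symbol followed by P and a number, the usual name of its processed pseudogenes, and 788 of these had a count in at least 1 library. All 78 genes were tested, so the filter on low counts removed none.

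Total RNA was sequenced in 6 libraries, 3 from HCT116 cells with wild-type eIF6 (WT) and 3 from CRISPR/Cas9-edited HCT116 clones with eIF6-N106S on both copies (MUT). No drug or time course was applied, and the cells were taken before confluence. Whether replicates came from separate cultures or clones is not labelled, and the p-values therefore cover the variation among these libraries alone, part of which may be technical. In bulk RNA, fewer cells with a transcript and less of it per cell cannot be told apart.

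Ribosomal proteins coat the ribosomal RNA of the subunits, and each ribosome holds 1 copy of most of them. eIF6 binds the joining face of the 60S subunit, at the proteins encoded by RPL3, RPL23 and RPL24, and keeps it from pairing with the 40S subunit until the GTPase EFL1 and SBDS release it. The mRNAs of ribosomal proteins are known for a 5′ terminal oligopyrimidine (TOP) motif, a C at the cap followed by a run of pyrimidines, through which LARP1 and the kinase mTOR control their translation and stability. Because these genes are short and highly transcribed, they have left many processed copies in the genome, and short reads can match a gene and its copies equally well.

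The TOP motif is printed for 7 members whose levels are described below, since it is a sequence feature for which these mRNAs are known. Each window runs 5′ to 3′ over 30 bases around the RefSeq start on GRCh38.p14, and capitals mark the C and the pyrimidine run that follows it.
RPL28: tcgccttcCTCTTTCCgtctcaggtcgccg
RPL3: ccgaccggCCTCTaccggcgggatttgatg
RPL24: gattctctCTTTCTTTTCgccatcttttgt
RPLP1: cgcgagagCCCCTTTCCTCagctgccgcca
RPLP2: ggcgccttCCTTTTCCTCCCTgtcgccacc
FAU: gcttcttcCTCTTTCTCgactccatcttcg
RPS19: ccgtcgttCCCTTTCCCCTggctggcagcg
These windows lie at chr19:55385924-55385953 on the plus strand for RPL28, chr22:39319603-39319632 on the minus strand for RPL3 and chr3:101686697-101686726 on the minus strand for RPL24. RPLP1 is at chr15:69452810-69452839 and RPLP2 at chr11:809959-809988, both on the plus strand. FAU is at chr11:65122113-65122142 on the minus strand and RPS19 at chr19:41860247-41860276 on the plus strand. The runs range from 5 pyrimidines in RPL3 to 13 in RPLP2. In RPL3 the run begins 1 base before the RefSeq start, and in the others it begins at the start.

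Promoter sequence from RefSeq was matched for 63 of the 78 genes. A C followed by pyrimidines to a run of at least 5, searched on the transcribed strand with C and T as the letters allowed, stood exactly at the RefSeq start in 43 of the 63 (68.3%), against 4.07% of all 35116 promoters in the table. Within 10 bases of the start it was found in 51 of the 63 (81.0%), against 26.1% of all promoters. The large subunit had it at the start in 25 of 38 genes (65.8%) and the small subunit in 18 of 25 (72.0%). A match describes the letters at an annotated start and is not a measured cap site.

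The libraries held between 53986494 and 87656970 counts. Most of these fell on the abundant noncoding RNAs 7SL, 7SK, RPPH1 and RMRP, and between 10252501 and 21984081 counts remained without them. The 78 genes took 23.9%, 29.4% and 21.7% of the remaining counts in WT replicates 1 to 3 and 23.0%, 24.8% and 21.7% in MUT replicates 1 to 3, so the groups overlapped. Rows of nuclear-encoded ribosomal RNA took 3.91% of all counts in MUT replicate 2 and 1.16% in WT replicate 1, against 0.0891% to 0.234% in the other 4 libraries. Among markers of the line's epithelial origin KRT8, KRT18, KRT19 and EPCAM were present at 1.13 TPM or more in every library, CDH1 reached at most 0.03 TPM, and CDH17, VIL1 and LGALS4 were at 0.01 TPM or less. The 11 markers of other cell types were at 0.11 TPM or less.

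Most ribosomal protein mRNAs lay slightly lower in MUT than in WT once libraries were scaled by TMM, which sets the typical gene to no change, but 0 of 78 passed the test. Of the 78 genes, 71 had a log2 fold change (MUT over WT) below 0, as did 51.3% of all 14808 genes tested, and the median was -0.29 against -0.01 for all genes. By edgeR's quasi-likelihood test no member reached an adjusted p below 0.05, while 0.925% of all genes were called lower and 0.986% higher. On simulated data this test called 28.8% of genes changed 2-fold and 3.03% of genes changed 1.5-fold. Small changes would therefore mostly go uncalled. At an unadjusted p below 0.05, 12 members were lower, where 9.84% of all genes were, and 1 was higher (RPL41), where 9.79% were. All 3 MUT values lay below all 3 WT values for 21 of 78 members (26.9%), against 13.4% of all genes, and above them for 0 members, against 12.8%.

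The sign of the members depends on the scaling, while their median stayed below that of all genes in the scalings tried. By library size alone only 9 of the 78 (11.5%) were below 0, as were 9.49% of all genes, and their median was 0.27, while the median of all genes was 0.54. On the log2(TPM + 1) scale 6 of the 76 members tested (7.89%) were below 0, against 8.54% of all genes, with a median of 0.30 against 0.37. On the log2(TPM + 0.1) scale the medians were 0.30 and 0.50. With DESeq2's size factors in place of TMM, edgeR called 0 members, where it called 284 of 14808 genes. DESeq2's own Wald test called 14 members lower, 0 higher, where it called 2.77% of all genes lower. Among them were FAU, RPL3, RPL8, RPL10, RPL13, RPL18, RPL28, RPL30, RPL39, RPLP1, RPS9 and RPS16.

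**Figure D1:**
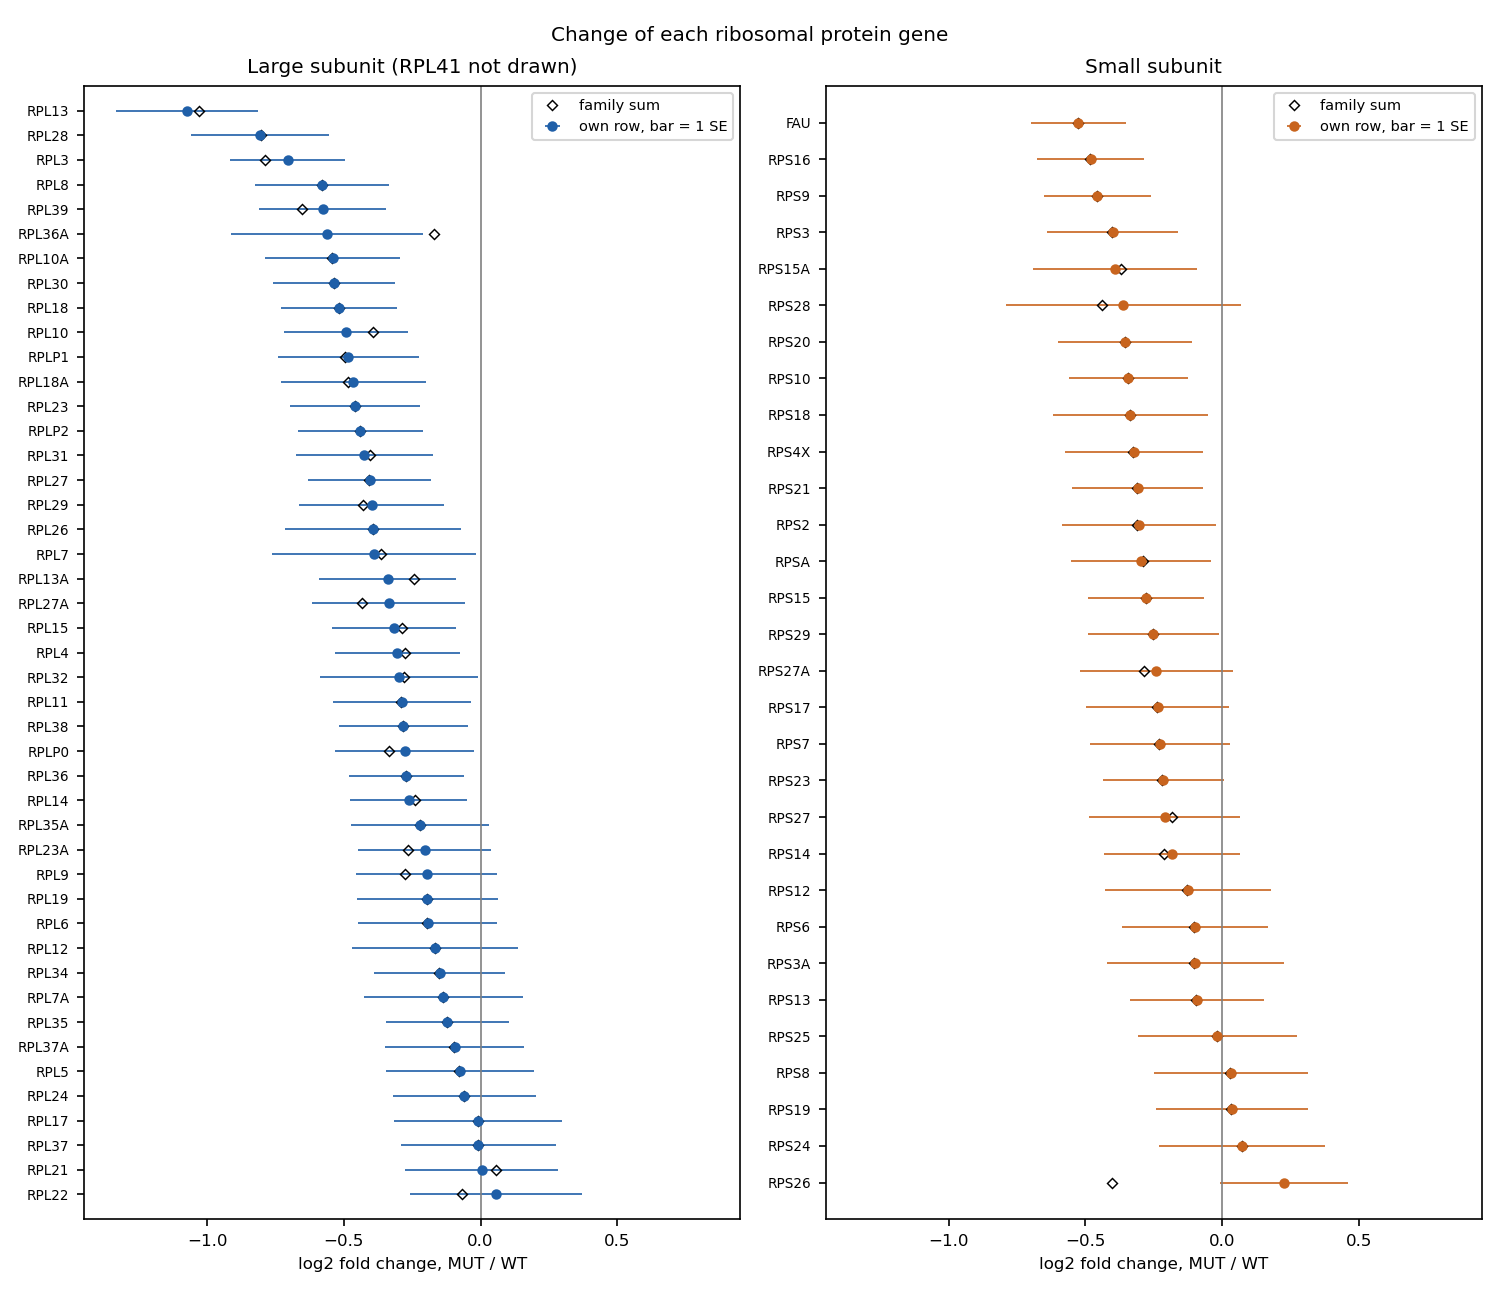
Log2 fold change of 75 members in MUT over WT (x axis) for the large (left) and small (right) subunit, from the gene's own row with 1 SE and with pseudogene counts added (diamonds), 3 libraries a group. Under TMM scaling 71 of 78 rows lie below 0, and by library size alone 9 of 78 do. RPL41, at 4.89, is off the scale, and 2 others are not drawn.

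The groups overlapped when each library was summed up over the members. As the median over all members of the log2 deviation from each gene's mean, WT replicates 1 to 3 stood at 0.11, 0.40 and -0.08 and MUT replicates 1 to 3 at -0.16, 0.20 and -0.44. WT replicate 2 had the highest value of all 6 libraries for 54 members, and MUT replicate 3 the lowest for 65. MUT replicate 2 lay above WT replicates 1 and 3, and it exceeded the mean of the other MUT libraries for 70 of 78 members, by a median of 0.48 on the log2 scale. Without MUT replicate 2 all 78 members had values below 0, with a median of -0.43. In the 4 libraries low in ribosomal RNA, a choice made after these values were seen, 77 of 78 did, with a median of -0.45. Without WT replicate 2 the count was 54 and the median -0.13, and without MUT replicate 3 it was 59 and -0.15.

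**Figure D2:**
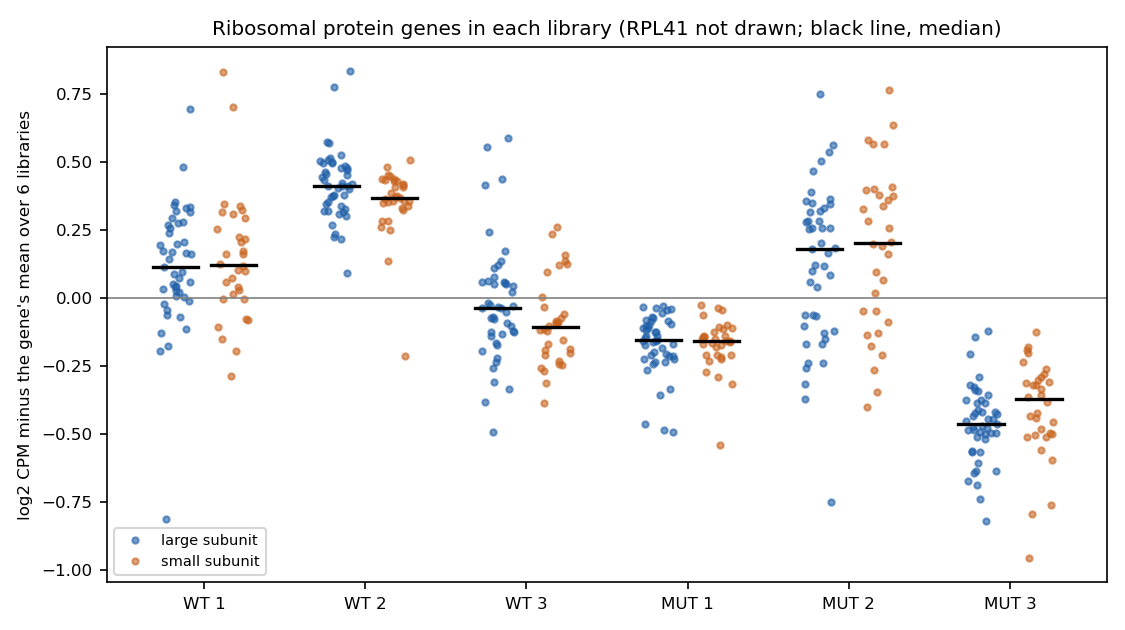
Log2 CPM of each member minus its mean over the 6 libraries (y axis), by library (x axis) and subunit, with medians as black lines and RPL41 not drawn. WT replicate 2 is the highest library and MUT replicate 3 the lowest, and MUT replicate 2 sits among the WT libraries.

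RPL13 had the lowest log2 fold change of all members. It encodes a large-subunit protein, eL13, and lies at 16q, close to the telomere (chr16:89560657-89566828 on GRCh38). In CPM, counts scaled to the size of the TMM-scaled library, it had 1717, 2395 and 1796 in WT and 1051, 799 and 957 in MUT. The highest MUT value lay well below the lowest WT value. The log2 fold change was -1.07 (SE 0.26), with an edgeR adjusted p of 0.0701, and -0.95 without MUT replicate 2. With its pseudogene counts added the value was -1.03 (edgeR adjusted p = 0.0608). DESeq2 gave an adjusted p of 7.8e-08, and over all fits of the gene's own row the adjusted p ran from 7.8e-08 to 0.656. Of the 29 tested neighbours within 1 Mb of RPL13 whose average log2 CPM exceeded 0, 25 were below 0, with a median of -0.47. Among these neighbours edgeR called 10 lower and 0 higher. Of all genes tested, without that limit on CPM, 51.3% were below 0, 0.925% were called lower and 0.986% higher. How far the region takes part in the value of RPL13 was not tested.

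The genes at the eIF6 site gave values from -0.71 to -0.06, and differences between them were not tested. RPL3, the large protein near the peptidyl transferase centre whose C-terminal end reaches the eIF6 site, had 297, 362 and 403 CPM in WT and 195, 262 and 194 in MUT. The groups did not overlap, and the log2 fold change was -0.71 (SE 0.21, edgeR adjusted p = 0.117). In the 4 libraries low in ribosomal RNA it was -0.95 and RPL3 was the 1 member called (edgeR adjusted p = 0.0413), where that fit called 1.4% of all genes lower. Over all fits of the gene's own row the adjusted p of RPL3 ran from 0.00195 to 0.909.

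RPL23, whose protein uL14 is the main contact of eIF6, had 361, 431 and 286 CPM in WT and 266, 315 and 204 in MUT. One MUT library lay above the lowest WT library (log2 fold change -0.46, SE 0.24, edgeR adjusted p = 0.332). RPL24, whose protein joins the subunit late in its assembly, had 372, 509 and 342 CPM in WT and 359, 513 and 302 in MUT. The highest value of RPL24 was in MUT replicate 2, the groups overlapped fully, and the log2 fold change was -0.06 (SE 0.26, edgeR adjusted p = 0.931). Without WT replicate 2 or MUT replicate 3 it was above 0, at 0.16 and 0.10.

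The mRNAs for the proteins of the P stalk, the flexible arm that recruits the GTPases of translation, had values below 0 under TMM scaling, and none passed the test. RPLP0, the base of the stalk, had 2977, 3397 and 3294 CPM in WT and 2640, 2798 and 2537 in MUT (log2 fold change -0.28). RPLP1, which forms the stalk dimers together with RPLP2, had 2513, 2854 and 2027 CPM in WT and 1807, 1842 and 1639 in MUT (-0.48, SE 0.26, edgeR adjusted p = 0.347). For RPLP2 the values were 1146, 1333 and 1010 in WT and 938, 843 and 793 in MUT (-0.44). For these 3 genes every MUT library lay below every WT library, as for 13.4% of all genes. RPL12, which anchors the stalk to the subunit, overlapped between groups, with 1316, 1762 and 992 CPM in WT and 1108, 1557 and 963 in MUT (-0.17). For RPL12 the highest MUT value was that of replicate 2, and for RPLP2 it was that of replicate 1.

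The mRNAs for the 2 proteins of the 5S particle, which binds MDM2 and thereby links ribosome assembly to p53, had overlapping values. RPL5 had 277, 365 and 314 CPM in WT and 252, 429 and 226 in MUT (log2 fold change -0.07, edgeR adjusted p = 0.917). RPL11 had 190, 178 and 149 in WT and 129, 196 and 97.9 in MUT (-0.29, edgeR adjusted p = 0.598). For both genes MUT replicate 2 held the highest value of all libraries.

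Among other large-subunit genes, RPL28 had the second lowest value. It had 965, 816 and 620 CPM in WT and 540, 460 and 371 in MUT, and the groups did not overlap (log2 fold change -0.81, SE 0.25, edgeR adjusted p = 0.128). RPL8, whose protein lies near the peptidyl transferase centre, was at -0.58, and RPL39, a small protein of the exit tunnel, at -0.58, both without overlap. RPL8 and RPL39 are named after their values were seen. All 8 genes of the exit tunnel had values below 0 under TMM scaling (median -0.25), where 51.3% of all genes did. For 1 of the 8 (12.5%) all MUT values lay below all WT values, close to the 13.4% of all genes. Of 7 genes for proteins that join late in 60S assembly, 6 were below 0, where 51.3% of all genes were. The other was RPL41, whose value rested on 1 library and is given further on. Of the 7, 4 did not overlap (57.1%), against 13.4% of all genes with all MUT values below all WT values. These were RPL10 and the stalk genes RPLP0, RPLP1 and RPLP2 already given. RPL10, whose insertion precedes the release of eIF6, had a log2 fold change of -0.49 (SE 0.23, edgeR adjusted p = 0.274).

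In the small subunit FAU had 327, 362 and 333 CPM in WT and 257, 223 and 230 in MUT (log2 fold change -0.53, SE 0.17, edgeR adjusted p = 0.145). The groups did not overlap, and the spread within them was small, at 341 ± 19.1 CPM in WT and 237 ± 18.1 in MUT (SD, n = 3 each). RPS16, which encodes a protein of the 40S head, had 731, 698 and 656 CPM in WT and 531, 488 and 474 in MUT, also without overlap (-0.48, SE 0.19, edgeR adjusted p = 0.216). RPS16 is named after its values were seen.

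The genes for proteins of the 40S head and body had medians of -0.31 and -0.22. Of 14 head genes 13 had values below 0 under TMM scaling, and of 18 body genes 15 did, where 51.3% of all genes did. All MUT values lay below all WT values for 4 head genes (28.6%) and 4 body genes (22.2%), against 13.4% of all genes.

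At the other end of the small subunit, RPS26 had the highest value, 0.23, at 2.11 to 3.06 CPM in WT and 2.36 to 3.91 in MUT, and its family is given further on. RPS19, which encodes a head protein needed for 18S rRNA maturation and is mutated in Diamond-Blackfan anemia, had 960, 1435 and 919 CPM in WT and 1019, 1411 and 969 in MUT (log2 fold change 0.04). RPS24, another gene of that disease, had 352, 461 and 332 in WT and 351, 588 and 266 in MUT (0.07). Both turned below 0 without MUT replicate 2, to -0.13 and -0.29. RPL21 and RPL22 of the large subunit, at 0.0047 and 0.06, did so as well, to -0.33 and -0.41.

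**Figure D3:**
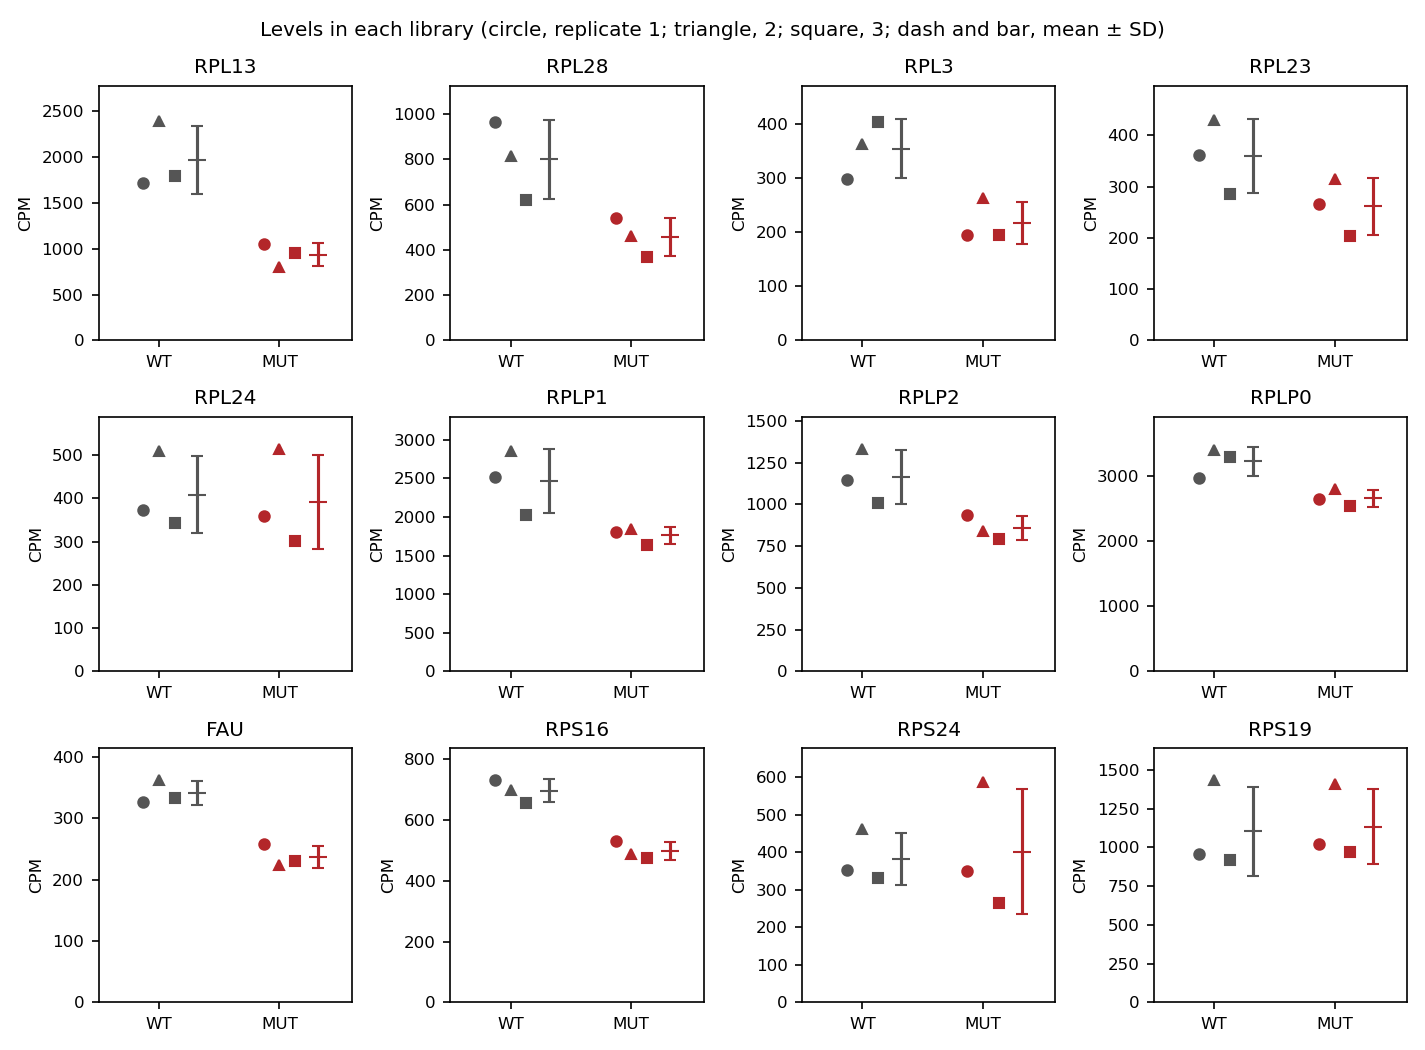
CPM of the TMM-scaled library (y axis) of 12 members in WT and MUT (x axis), with each library as a symbol and mean ± SD of 3 libraries beside it. RPL13, RPL28, RPL3, the P-stalk genes RPLP0 to RPLP2, FAU and RPS16 do not overlap between the groups, and RPL23, RPL24, RPS24 and RPS19 do.

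Large and small subunit had similar medians, -0.30 and -0.26, a difference of -0.04. Taken in each single library, the difference of the medians had an SD of 0.05 in the group where it spread more (n = 3). Whether the subunits differ was not tested. The difference of -0.04 turned above 0 when pseudogene counts were added (0.0062), without WT replicate 3 (0.0063) and on the log2(TPM + 0.1) scale (0.0013). Under TMM scaling 43 of 46 genes were below 0 in the large subunit and 28 of 32 in the small subunit, where 51.3% of all genes were. All MUT values lay below all WT values for 13 large-subunit genes (28.3%) and 8 small-subunit genes (25.0%), against 13.4% of all genes.

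The ratio of summed large-subunit to summed small-subunit counts is taken within a library and does not depend on the scaling between libraries. It was 1.232, 1.263 and 1.286 in WT and 1.208, 1.196 and 1.154 in MUT. All 3 MUT ratios lay below all 3 WT ratios, at 1.19 ± 0.0280 against 1.26 ± 0.0270 (SD, n = 3 each). This held with any 1 of the 78 genes left out of the sums. Without RPL13, the gene that narrowed it most, the ratios were 1.165, 1.185 and 1.206 in WT and 1.158, 1.164 and 1.103 in MUT, and the gap between the groups shrank to 0.00047. With pseudogene counts added the ratios were 1.33, 1.33 and 1.35 in WT and 1.28, 1.27 and 1.23 in MUT. The ratio of summed TPM, which corrects for transcript length, overlapped, at 1.022, 1.084 and 1.095 in WT and 1.042, 1.026 and 1.002 in MUT. No test was run on these ratios, since they sum over the chosen genes.

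**Figure D4:**
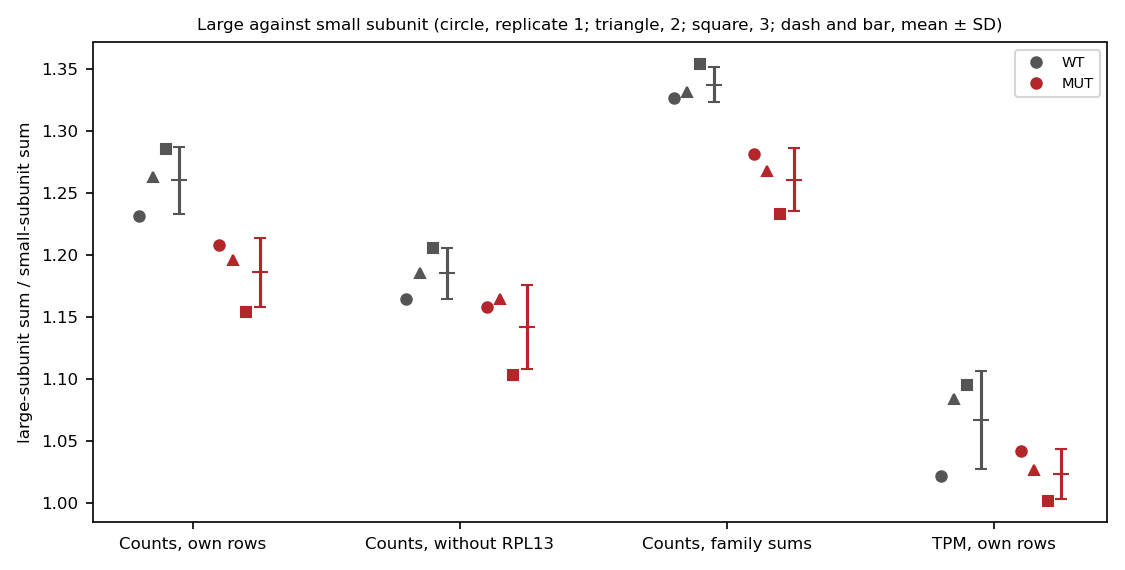
Ratio of summed large-subunit to summed small-subunit values (y axis, which does not start at 0) in each library, with mean ± SD of 3 libraries, for 4 ways of summing (x axis). MUT lies below WT for the count ratios and overlaps WT for TPM.

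Levels are compared between genes only in TPM, which divides by transcript length. RPS2 had the highest mean over the 6 libraries, at 1425 TPM, followed by RPS18 (872), RPLP0 (814), RPS20 (805), RPLP2 (746) and RPL12 (705). The median over all 78 genes was 223 TPM, with 154 in the large and 247 in the small subunit. The lowest were RPL36A (0.198 TPM), RPS26 (0.79), RPL22 (4.11) and RPL14 (9.80). RPL41 had a mean of 196 TPM, with 1150 in MUT replicate 2 and 3.08 to 7.64 in the other 5 libraries. Without MUT replicate 2 it was the fourth lowest, at 5.47, below RPL14 at 7.90. The proteins encoded by RPL36A, RPS26, RPL22 and RPL14 are components of the same ribosome, and for the first 3 of them the deposited counts sit mostly on pseudogene rows. RPL14 was low in TPM and not in counts. In WT replicate 1 it had 15300 counts and 6.61 TPM, where RPL11 had 13097 counts and 70.67 TPM. The place of RPL14 in this ranking therefore rests on the transcript length by which TPM divides.

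Within the families, RPS26 itself held a mean of 0.985% of the counts, and RPS26P25 on chromosome 4 held 98.1%. RPL36A held 0.228% and RPL36AP37 on chromosome 11 held 96.8%. RPS28 held 11.6% and RPS28P7 held 87.2%, and RPL22 held 16.8% and RPL22P1 held 81.2%. RPL23AP42 (61.9%), RPS23P8 (59.2%), RPL9P8 (55.0%) and RPL27AP6 (51.8%) held more than their parents. The parent held less than 50% of its family in 9 of 78 families and at least 90% in 55, with a median of 99.5%. Over all families pseudogene rows took 11.5% to 12.5% of counts in WT and 10.5% to 12.2% in MUT.

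The coding sequence of the parent could be compared with 52 of the 81 pseudogenes that had a mean of at least 100 counts, and the median identity was 98.0%. In 5 of these the aligned bases were identical. RPS28P7 matched RPS28 over all 210 bases of the coding sequence, and RPL7P9 differed from RPL7 at 2 of 747. RPL22P1 differed from RPL22 at 23 of 387 bases (94.1% identity). For RPL41, which encodes the smallest of the ribosomal proteins, the whole coding sequence of 78 bases is found without a difference in RPL41P1, RPL41P2 and RPL41P5. The gene lies at chr12:56116586-56117943 on the plus strand of GRCh38, and its coding sequence is printed once from the GENCODE transcripts, in lower case throughout because no base differs.
RPL41: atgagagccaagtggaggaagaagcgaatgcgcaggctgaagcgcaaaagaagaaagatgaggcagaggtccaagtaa

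RPL41 was the 1 member far above 0, and the value rested on 1 library. Its counts were 1215, 1027 and 419 in WT and 756, 116276 and 537 in MUT. RPL41P2 went the other way, with 43793, 63928 and 25359 in WT and 50763, 1433 and 35614 in MUT. RPL41P3 had 40111, 55872 and 21982 in WT and 42397, 651 and 31271 in MUT, and RPL41P1 had 57845 in MUT replicate 2 and at most 19846 elsewhere. The log2 fold change of the RPL41 row was 4.89 (SE 1.68, edgeR adjusted p = 0.157) and -0.51 without MUT replicate 2. Summed over the family the values were 1521, 1852 and 1251 CPM in WT and 1388, 1811 and 1300 in MUT, with a log2 fold change of -0.04 (SE 0.26, edgeR adjusted p = 0.956).

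Other families were also divided differently in MUT replicate 2, and some in WT replicate 1 as well, the libraries high in ribosomal RNA. Of the 81 pseudogenes with a mean of at least 100 counts, MUT replicate 2 had the highest family share of all 6 libraries for 26 and the lowest for 38. RPL7P9 held 59.6% of its family in WT replicate 1 and 51.9% in MUT replicate 2, against 27.7% to 40.4% in the other 4 libraries. RPL15P3 held 44.4% and 45.8% in these libraries, against 25.9% to 26.9%. RPL13AP5 held 12.8% and 28.2%, against 4.71% to 5.13%. RPL3P4 held 0.08% of the RPL3 family in MUT replicate 2 and 10.9% to 16.3% elsewhere. Of the same 81, both of these libraries lay above the other 4 for 13 and below them for 32. All MUT shares lay below all WT shares for 2 of them and above for 5. These counts divide the libraries in unlike ways, and rows of 1 family are not independent, so they are not weighed against each other. The part of ribosomal RNA content and of sequence identity in this division was not tested.

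**Figure D5:**
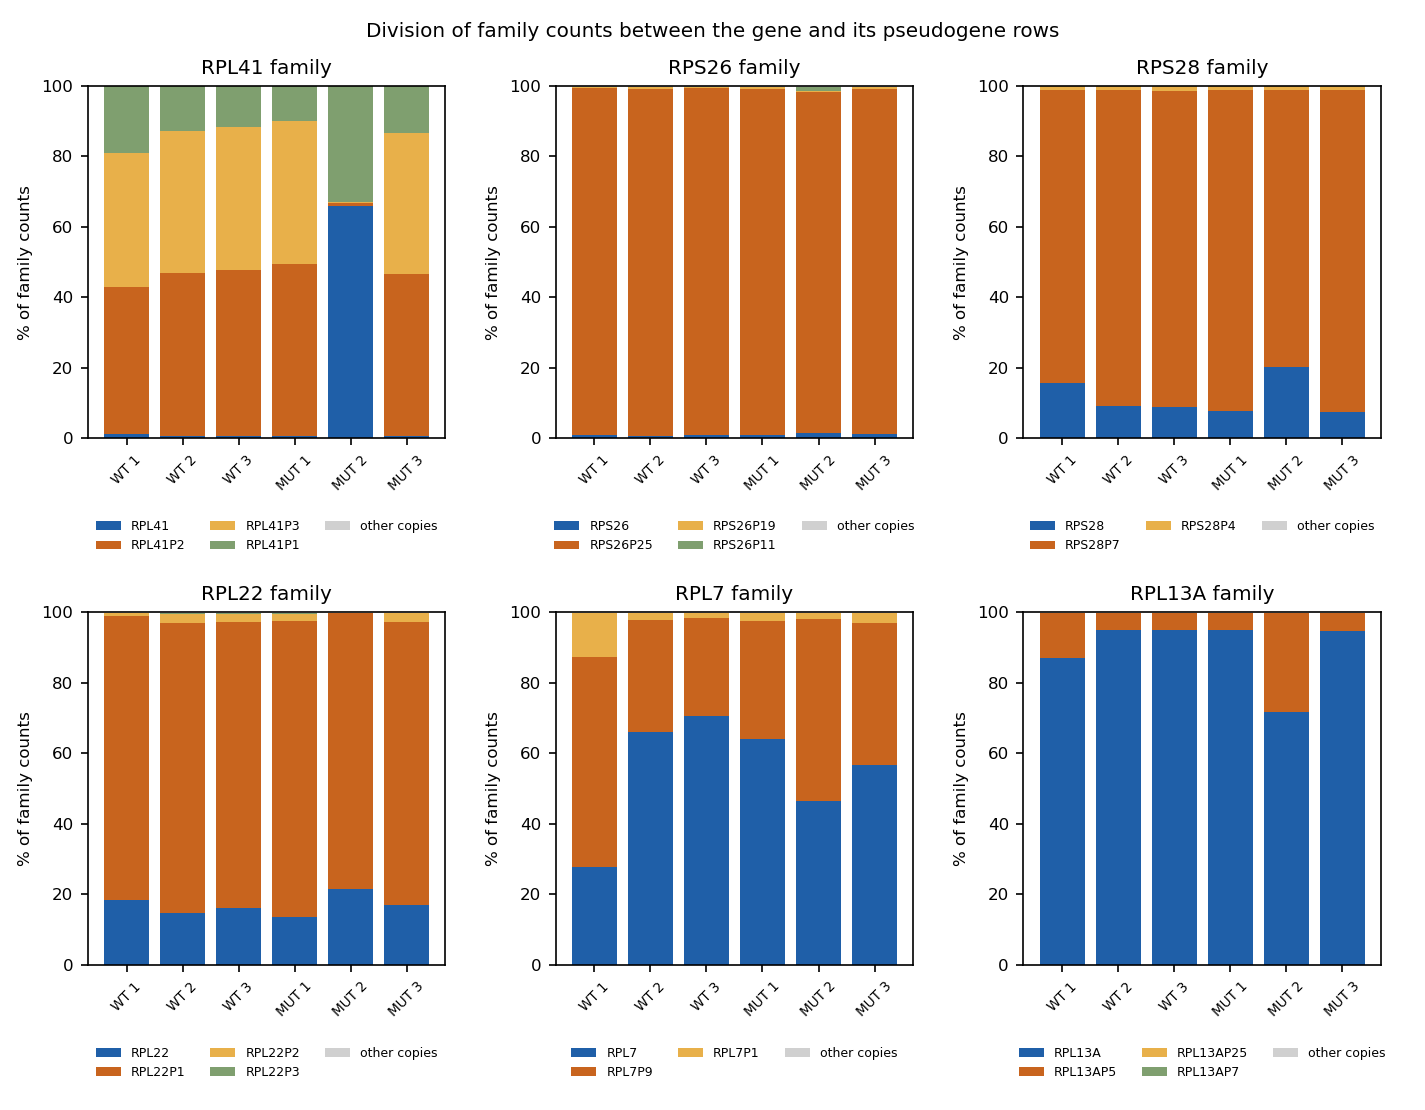
Share of family counts (y axis, percent) held by the gene and its most counted pseudogene rows in each library (x axis), for 6 families. RPL41 holds 66.0% in MUT replicate 2 and at most 1.16% elsewhere, and RPS26 and RPS28 are mostly on 1 pseudogene row in every library.

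Adding each pseudogene's counts to its parent sets aside, by construction, how a family is divided, and it changed the count of members below 0 little. Of the 78 families 74 had values below 0 under TMM scaling, against 51.4% of all 14641 rows tested, and by library size alone 9 did. No family passed edgeR's test, where 1.21% of all rows were called lower and 1.26% higher. All MUT values lay below all WT values for 21 families, against 13.5% of all rows, and above for 0, against 12.7%. At an unadjusted p below 0.05, 12 families were lower, where 10.1% of all rows were, and 0 higher, where 9.83% were. DESeq2 called 13 families lower, where it called 2.85% of all rows. RPS26 moved from 0.23 to -0.40 and RPL36A from -0.56 to -0.17 when their families were summed. RPL3 moved from -0.71 to -0.79.

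Of 164 pseudogene rows tested on their own, 110 (67.1%) had values below 0 under TMM scaling, against 51.3% of all genes, with a median of -0.29. Calls by edgeR were 2 lower (1.22%), close to the 0.925% of all genes, and 0 higher. RPL3P2, a copy of RPL3, had 3.56, 3.70 and 4.03 CPM in WT and 2.44, 2.52 and 2.15 in MUT (log2 fold change -0.66, edgeR adjusted p = 0.0382). RPSAP15, a copy of RPSA, had 0.400 to 0.854 CPM in WT and at most 0.0616 in MUT. It passed the filter on low counts only through WT, with 0 counts in 2 of the 3 MUT libraries, and so its call and fold are not read as a result. Both genes were named because they were called, after their values were seen.

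The members that carry a TOP motif within 10 bases of the start had a median close to that of the others. The 51 with the motif had a median log2 fold change of -0.28 under TMM scaling, the 12 without it -0.26, and the 15 with no sequence matched -0.39. The 28 genes with a small nucleolar RNA inside them had a median of -0.30, and the other 50 had -0.28.

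Genes tied to the ribosomal proteins gave few calls. Of 23 other mRNAs known for a TOP motif, among them elongation and initiation factors, 20 had values below 0 under TMM scaling, where 51.3% of all genes did, with a median of -0.37. The test called 1 of the 23 lower, where it called 0.925% of all genes. HNRNPA1, a splicing regulator, fell from 103, 104 and 105 CPM in WT to 55.1, 61.1 and 59.3 in MUT (log2 fold change -0.83, SE 0.13, edgeR adjusted p = 0.0192). RACK1, a scaffold on the 40S head, is a ribosomal protein outside the naming rule. It was at -0.63 without overlap between the groups and did not pass (edgeR adjusted p = 0.153). Of 9 regulators of TOP mRNAs, LARP1 and mTOR among them, 0 were called.

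Of 18 chaperones and importers of ribosomal proteins 9 were above 0 and 1 was called higher, where 0.986% of all genes were. GRWD1, a chaperone of RPL3, rose from 7.46, 7.35 and 6.78 CPM in WT to 11.4, 11.7 and 12.5 in MUT (log2 fold change 0.72, SE 0.11, edgeR adjusted p = 0.0183). Of 17 genes tied to the modification of ribosomal proteins, enzymes and the modifiers UFM1 and NEDD8 among them, 11 were above 0. Of these 17 genes 1 was called higher, against the same 0.986% of all genes. OGFOD1, which hydroxylates RPS23, rose from 1.91, 1.67 and 1.76 CPM to 2.78, 3.85 and 3.96 (0.99, SE 0.17, edgeR adjusted p = 0.0277). The client RPL3 was lower in every MUT library, as given above, and RPS23 overlapped, with a log2 fold change of -0.22. Of 8 paralogs of ribosomal proteins, such as RPL22L1 and RPS27L, 5 were tested and 0 called. The edgeR calls of HNRNPA1, GRWD1 and OGFOD1 depended on the set of libraries. All 3 were lost without WT replicate 1, 2 or 3, without MUT replicate 3, and by library size alone. Without MUT replicate 1, 2 of the 3 were lost, and without MUT replicate 2 all 3 stayed.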

How the data were processed

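RNA of 6 HCT116 libraries (3 WT, 3 MUT) was analysed from the authors' deposited tables. The deposited expected counts, made by the authors per gene symbol, were whole numbers already. The deposited TPM values, in which the authors corrected for depth and length, gave levels between genes and alternatives, and the deposited FPKM values were not used. Tools listed in the submitters' processing notes are RSEM 1.2.28, STAR 2.5.2b, FastQC 0.12.1 and DESeq2 1.42.0, on build hg38, without roles. The annotation is not given in the sources used here.

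In R 4.3.3 with edgeR 4.0.16, genes passing filterByExpr (minimum count 10, total 15) were scaled by TMM, and tested for MUT against WT with the quasi-likelihood F-test, without covariates. Calls needed a p below 0.05 after Benjamini-Hochberg adjustment over all tested genes. SE is the log2 fold change over the square root of F. Family sums add pseudogene counts to the parent row. The code was tested on simulated data with the mean counts, library sizes and dispersions of these libraries and 200 changed genes. It called 90.6% of the genes changed 4-fold, 28.8% of those changed 2-fold and 3.03% of those changed 1.5-fold. Of 14416 unchanged genes 9 were called. Alternatives used DESeq2 1.42.0 and limma 3.58.1 (genes with a mean of at least 1 TPM over the 6 libraries). GENCODE v29 placed 78 of 78 members and RefSeq matched 1942 of 1943 pseudogenes. Bases were aligned with edlib.

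Named genes were the 3 lowest and highest log2 fold changes and TPM levels of each subunit, members at the eIF6 site, P stalk and 5S particle, RPL41, the 8 pseudogenes with the largest family share, and called genes of the lists. Other genes named, among them RPL8, RPL10, RPL39 and RPS16, fall outside this rule, and their values were known when they were named. Members and lists were chosen with earlier results of these data known. Some genes that this rule takes are not reported here, though they stay in all counts and medians.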

Additional observations from a re-analysis of the deposited data

How the results depend on the processing

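The count of 0 called members became 1 (RPL41, higher) by library size alone, where 108 of 14808 genes were called. Without a low-count filter it became 4 (3 lower, among them RPL13 and RPL28, and RPL41 higher), where 1195 of 29369 genes were called. With DESeq2's Wald test it became 14, where 760 of 14808 genes were called. In the 4 libraries low in ribosomal RNA it became 1, where 395 of 14874 genes were called. Leaving out each library in turn gave 0 each time. Those fits called 442 of 15262 genes without MUT replicate 2, and only 27 to 61 genes when any other library was left out. A count of 0 members in the latter fits therefore says little. The count of 0 called families became 4 without the filter, where 1245 of 28581 rows were called. With DESeq2 it became 13, where 781 of 14641 rows were called, and in those 4 libraries 1, where 402 of 14706 were. Same-numbered WT and MUT libraries deviated with correlations of -0.29, -0.04 and 0.22. The highest correlation, 0.37, was between WT replicate 1 and MUT replicate 2, the libraries high in ribosomal RNA. These values cannot settle whether the numbers pair the libraries. With a replicate block 0 members were called, where 296 of 14808 genes were. The block called 2 families (RPL13, RPL28), where it called 484 of 14641 rows. Leaving out 1 library, the large-subunit median ran from -0.16 to -0.44 and the small-subunit median from -0.11 to -0.41. The difference of the medians ran from -0.0833 to 0.0063 in those fits, and was 0.0013 on the log2(TPM + 0.1) scale and 0.0062 for family sums.

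Some log2 fold changes turned sign with 1 library left out, and the cause was not tested. Their lowest value came each time without MUT replicate 2, and they ran from -0.3724 to 0.0998 for RPL12, from -0.3272 to 0.2055 for RPL21, from -0.4138 to 0.2681 for RPL22 and from -0.2717 to 0.0704 for RPL22P1. The range was -0.2864 to 0.1639 for RPL24, -0.5062 to 5.4598 for RPL41, -0.3949 to 0.0966 for RPL5, -0.1347 to 0.3027 for RPS19, -0.2896 to 0.2984 for RPS24 and -0.0456 to 0.4264 for RPS26. In the 4 libraries low in ribosomal RNA, chosen after seeing the data, RPL21 was -0.3762, RPL22 -0.248, RPL41 -0.2861, RPS19 -0.2278 and RPS24 -0.3458. With a replicate block RPL21 was -0.0469 and RPL22 -0.0199. Family sums gave RPL22 -0.0675, RPL41 -0.0399 and RPS26 -0.4031. Relative to the median of all genes, RPL5 was 0.0136 by library size alone. On the log2(TPM + 1) scale, so taken, RPL12 was 0.0964, RPL22P1 0.1611, RPL24 0.1765, RPL36AP37 0.017, RPL5 0.1238, RPS23 0.0179 and RPS23P8 0.0341. On the log2(TPM + 0.1) scale RPL22P1 was 0.0405 and RPL24 0.0503.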
